A study of Macaca mulatta with 2 samples.

Results

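The genes described here are those of the respiratory chain, encoded in the nucleus and in the mitochondrial genome, in single cells of rhesus macaque trabecular meshwork, the tissue through which aqueous humour drains from the eye. Members were all features of both count matrices whose symbol starts with NDUF, UQCR, SDH or ATP5, or with COX followed by a number, plus those starting with MT- and CYTB. This gave 97 of 24037 features, of which 92 had their symbol in the files and 5 (SDHA, COX7A2, NDUFB1, NDUFA6 and NDUFA11) took it from a reference table of gene names. They divide into 85 nuclear genes and 12 genes of the mitochondrial genome. By role the nuclear members were 28 subunits of complex I, 4 of complex II, 4 of complex III, 14 of complex IV, 14 of ATP synthase, and 21 assembly factors and inhibitors.

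The respiratory chain passes electrons from NADH and succinate to oxygen through complexes I to IV and pumps protons across the inner mitochondrial membrane, and ATP synthase uses that gradient to make ATP. Its subunits are encoded partly in the nucleus and partly in the small mitochondrial genome, whose transcripts are made and processed inside the organelle. A few subunits come as alternative isoforms that differ between tissues: COX4I2 and NDUFA4L2 are alternative forms of COX4I1 and NDUFA4, known as hypoxia-responsive and, in several organs, as markers of pericytes, the contractile cells on small vessels. COX7A1, named COX7AH in the files, is the form of COX7A2 known from heart and skeletal muscle.

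The study set a library labelled glaucoma, from monkeys described as having spontaneous primary open-angle glaucoma, against a library labelled normal, from healthy controls. Each group was 1 droplet-based 3-prime library of dissociated tissue with unique molecular identifiers (UMIs, which count captured RNA molecules). The labels do not give the number of animals or eyes behind a library, nor their age, sex or treatment. With 1 library per group no test between groups is possible, diagnosis cannot be told apart from animal, dissection or day, and intervals in brackets are 95% intervals of counting error only.

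The glaucoma library held 10624 barcodes and 38765808 UMIs and the normal library 7028 barcodes and 25042621 UMIs, with 17 barcodes in common. Cells with at least 500 genes that were not called doublets were kept, 9276 and 5846, with medians of 3016 and 2734 UMIs. No cell was removed for its mitochondrial share, because that share is a value of interest here. Of 26 clusters, those with enough cells formed 9 classes with at least 50 cells in each library, each called "like" a cell type from its markers. Unnamed clusters held 781 and 73 cells, and a lymphatic-type endothelium-like class of 551 and 33 cells was too small in the normal library to compare. In the trabecular meshwork-like class 8 of 16 markers were at their highest, and their summed level was 80042 and 67208 UMIs per 1000000 nuclear-genome UMIs (glaucoma, then normal, as in all pairs of values that follow) against 33336 and 39375 in the stromal fibroblast-like class, the next highest. In the pericyte-like class 7 and 8 of 11 markers were at their highest, and in the muscle-like class 11 of 14 in both libraries. Pericyte markers summed to 4425 and 4692 in the pericyte-like class, against 824 and 875 in the muscle-like class. Muscle markers summed to 7939 and 7993 in the pericyte-like class, more than its pericyte markers, and to 36604 and 35660.2 in the muscle-like class. RERGL, the first leading gene of the pericyte-like cluster, belonged to the muscle marker set. Haemoglobin UMIs, from red blood cells, numbered 62077 and 170886.

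Levels of nuclear genes are given as UMIs per 1000000 nuclear-genome UMIs (CPM) summed over the cells of a class, and differences as the log2 ratio of the glaucoma over the normal library. Because a 3-prime UMI counts a molecule once, levels of different genes need no correction for length, but they depend on how well the annotation covers each gene's 3-prime end, which was not tested. Over all kept cells the most counted nuclear member was NDUFA4 in the glaucoma library (43509 UMIs), and in the normal library COX6C (26995 UMIs), both of complex IV. In complex I the extremes were NDUFA11 (29290 and 16458 UMIs) and NDUFB5 (338 and 221 UMIs). In complex II SDHA led (5814 and 3591 UMIs), while its membrane anchors SDHC and SDHD had 22 and 18 and 27 and 14 UMIs. In complex III UQCRC1 was highest (7964 and 4682 UMIs) and UQCRC2 lowest (1440 and 773 UMIs). In ATP synthase ATP5ME was highest (29358 and 18278 UMIs). The catalytic beta subunit ATP5F1B had 269 and 391 UMIs, far fewer than its alpha partner ATP5F1A (12311 and 7985 UMIs), and the stalk subunit ATP5PB had 273 and 313 UMIs. Counts of subunits of the same complex were thus far apart.

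Of the 97 members 89 had at least 100 UMIs over both libraries. The other 8 were SDHC, SDHD, SDHAF1, COX17, COX7A2L, COX6B2, COX7B2 and MT-ATP8, and their counts are too low for a comparison. COX7C had 139 and 129 UMIs, and a second feature that the reference table also names COX7C had 2 and 140 UMIs, so reads of this gene may be split between copies and its ratio is uncertain. The features named COX8A, NDUFC2, NDUFAB1 and ATP5F1D carry the symbol of another gene in the reference table (OTUB1, KCTD14, PALB2 and STK11), so their identity is uncertain too.

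COX4I2 was at its highest in the pericyte-like class in both libraries. Pericyte-like cells held 5615 CPM [5446 to 5788] and 5603 CPM [5438 to 5773] of it, and 97.7% of 523 and 98.8% of 333 cells had at least 1 UMI. When every cell was thinned to 1000 UMIs, which left out 93 and 35 shallower cells, these shares were 97.0% and 94.3%. COX4I2 made up 86.2% [85.2 to 87.2] and 86.6% [85.6 to 87.5] of the UMIs of the COX4I1 and COX4I2 pair, and its log2 ratio between the libraries was 0.00. The common form COX4I1 was present in the same cells at 896 and 867 CPM.

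In the other classes COX4I1 was the main form. Muscle-like cells held 238 and 300.2 CPM of COX4I2, 10.5% and 15.5% of the pair. The log2 ratio of these levels was -0.34 and turned to 0.74 when cells with 20% or more mitochondrial UMIs were left out. The level followed the cluster. In cluster 9, led by RERGL, ACTG2 and PLN, it stood at 1495 and 1384 CPM and 61.5% and 60.7% of the pair. RERGL was also the first leading gene of the pericyte-like cluster, so COX4I2 was the main form in both clusters led by RERGL. In cluster 0, led by ATP2A1, MYH11 and CHRM3, COX4I2 stood at 7.49 and 7.79 CPM and 0.308% and 0.424% of the pair. Vascular endothelium-like cells followed with 173 and 239.8 CPM (18.5% and 25.6%), but 10 cells gave 49.2% of the 305 glaucoma UMIs and 79.9% of the 144 normal UMIs. Trabecular meshwork-like cells held 64.2 [59.4 to 69.3] and 17.7 [14.2 to 21.9] CPM and stromal fibroblast-like cells 24.1 and 21.5 CPM, whose intervals overlap. Macrophage-like cells, which are not known to use this gene, held 15.5 and 9.73 CPM, with a UMI in 2.44% and 2.31% of cells at median depths of 3962 and 4001 UMIs. These UMIs were not spread evenly, since 10 cells held 34 of the 40 in the glaucoma library, and the part of free RNA in them was not tested. T or NK cell-like cells had 25 UMIs in the glaucoma library, all in 5 cells, and none in the normal library, which allows up to 16.6 CPM.

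NDUFA4L2 had the same place of highest level. In pericyte-like cells it stood at 1947 [1848 to 2049] and 1482 [1398 to 1571] CPM, with a UMI in 85.5% and 82.3% of cells, and it made up 82.6% [80.7 to 84.3] and 87.3% [85.4 to 89.1] of the UMIs it shares with NDUFA4. Both genes of this pair were higher in the glaucoma library: the log2 ratio of NDUFA4L2 was 0.39, and NDUFA4 stood at 410 against 215 CPM, a log2 ratio of 0.93. Among the 523 and 333 pericyte-like cells 441 and 272 had UMIs of COX4I2 and NDUFA4L2 together, 70 and 57 of COX4I2 alone, and 6 and 2 of NDUFA4L2 alone. Their median depth was 1436 and 2288 UMIs, so a missing UMI in a single cell does not show that a gene was silent.

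**Figure D1:**
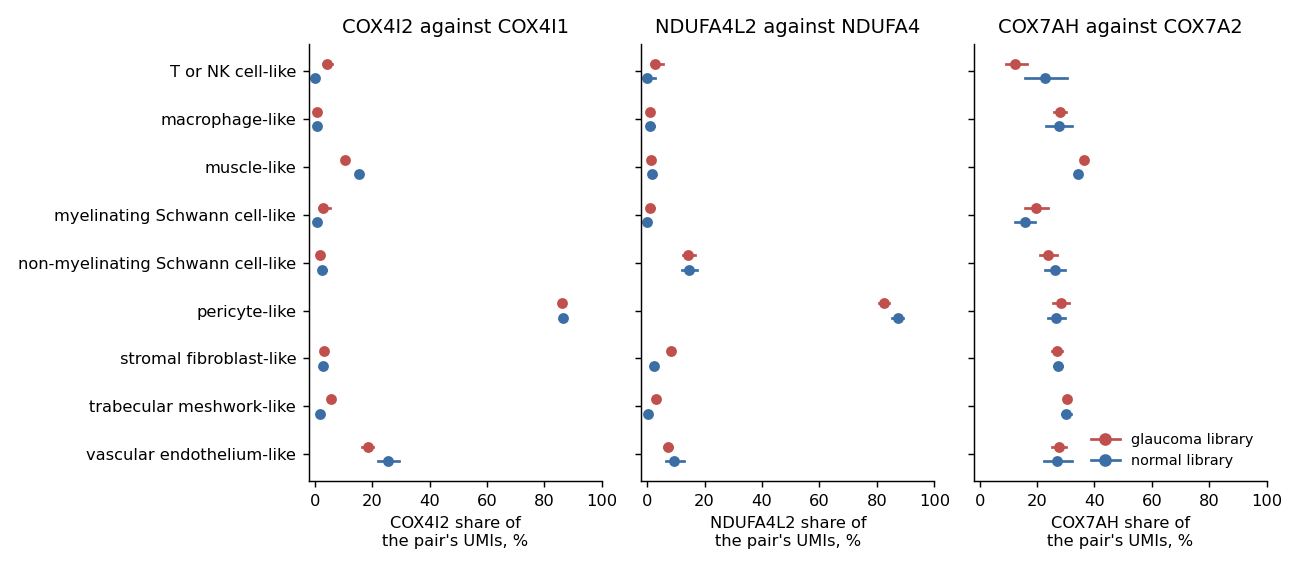
Share of the restricted isoform in the UMIs of its pair, in percent (x axis), for COX4I2, NDUFA4L2 and COX7AH in 9 classes of cells (y axis); points are the 2 libraries and lines 95% counting intervals. COX4I2 and NDUFA4L2 make up 82.6% or more of their pair in pericyte-like cells of both libraries and 25.6% or less in the other 8 classes, while COX7AH is between 12.4% and 36.4% in every class.

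Outside pericytes the order of NDUFA4L2 levels differed from that of COX4I2. Among the 9 compared classes non-myelinating Schwann cell-like cells came next with 184 and 116 CPM, carried by 42 of 885 and 16 of 586 cells, of which 10 gave 65.7% and 93.9% of the UMIs. Muscle-like cells held 53.9 and 37.7 CPM. Cluster 9 (223 and 157 CPM) gave 201 of their 343 and 190 of their 219 UMIs, and cluster 0 stood at 1.73 and 1.42 CPM. In the glaucoma library the level was higher in cluster 21, at 407 CPM from 79 UMIs in 57 cells. The 27 normal cells of cluster 21 had no UMI. Cluster 10, with 60 and 23 UMIs, had its higher level in the normal library, at 86.1 CPM. Vascular endothelium-like cells held 50.4 and 54.9 CPM with overlapping intervals. Outside the named classes, unnamed cluster 22, of 32 glaucoma cells and no normal cell and led by TAC1, CRHBP and RBP4, held 889.8 CPM from 122 UMIs, 66.3% of the pair. Macrophage-like cells held 6.95 and 5.56 CPM, with a UMI in 0.916% and 1.16% of cells: 18 UMIs in 6 cells and 4 UMIs in 2 cells.

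Stromal fibroblast-like and trabecular meshwork-like cells held more NDUFA4L2 in the glaucoma library. In stromal fibroblast-like cells it stood at 71.5 [63.3 to 80.6] against 14.2 [11.5 to 17.2] CPM, a log2 ratio of 2.34, with a UMI in 8.11% and 2.64% of cells. Each of the 4 clusters of this class had the higher level in the glaucoma library: 48.2 and 13.3, 76.9 and 9.68, 95.5 and 16.6, and 248 and 43.3 CPM. With each library clustered separately the ratio in this class was 3.08, and that of COX4I2 went from 0.16 to 1.98, so its level in stromal fibroblast-like cells depends on how the class is drawn. In trabecular meshwork-like cells it stood at 30.6 [27.3 to 34.2] against 2.3 [1.15 to 4.11] CPM, a log2 ratio of 3.74 [2.88 to 4.75], from 312 UMIs in 102 of 1681 cells against 11 UMIs in 8 of 651 cells. The share of cells with a UMI was 6.07% and 1.23%, and after thinning to 1000 UMIs it was 2.52% of 1665 cells and 0 of 636 cells, which allows up to 0.578%.

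That trabecular meshwork-like value came mainly from 1 cluster. In cluster 4 NDUFA4L2 stood at 53.4 and 3.61 CPM, in cluster 11 at 14.9 and 11.5 CPM, in cluster 13 at 0.794 and 1.44 CPM, and in cluster 18 no UMI was found. These values rest on 248 and 3 UMIs in cluster 4, 63 and 3 in cluster 11, and 1 and 5 in cluster 13. The low counts leave the size of the differences within clusters uncertain. Cluster 4 held 832 cells of the glaucoma and 132 of the normal library, while cluster 13 held 157 and 373. With each library clustered separately, which changes which cells the class holds, the log2 ratio was 1.45. Within the class 10 cells gave 33.7% of the glaucoma UMIs.

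In the same class COX4I2 too was higher in the glaucoma library, with a log2 ratio of 1.86 [1.53 to 2.20]. It was found in 18.8% and 5.38% of cells, and in 5.17% and 1.26% after thinning to 1000 UMIs. By cluster it stood at 78.1 and 45.8 CPM in cluster 4, 65.0 and 53.7 in cluster 11, 12.7 and 8.9 in cluster 13, and 16.1 and 9.27 in cluster 18, so differences within clusters were smaller than over the class. The normal value in cluster 11 rests on 14 UMIs, and the values in cluster 18 on 1 and 2 UMIs. With each library clustered separately the log2 ratio was 1.16. Pericyte markers moved the same way: their summed level in trabecular meshwork-like cells was 437 and 305 CPM, with 1 of 11 and 0 of 11 at 0, and RGS5, a defining pericyte marker, was at 157 and 67.6 CPM. In the 802 and 443 trabecular meshwork-like cells with no RGS5 UMI, COX4I2 stood at 55.2 and 12.5 CPM and NDUFA4L2 at 32.9 and 0.692 CPM, the last from 2 UMIs. In stromal fibroblast-like cells with no RGS5 UMI NDUFA4L2 stood at 61.1 and 9.22 CPM, and RGS5 in the whole class at 40.9 and 27.3 CPM.

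COX7AH was a matter of degree. It stood at 1275 and 1034 CPM in muscle-like cells, more than in any other compared class, where it ranged from 88.3 CPM in T or NK cell-like cells to 399 CPM in pericyte-like cells, both of the glaucoma library. Its share of the pair with COX7A2 was 36.4% [35.7 to 37.0] and 34.4% [33.7 to 35.1] in muscle-like cells and 30.3% and 30.2% in trabecular meshwork-like cells. Within the muscle-like class it was 39.7% and 34.5% in cluster 0 and 31.5% and 32.6% in cluster 9. The genes for subunit c of the ATP synthase rotor, which encode the same mature protein, also divided by class. ATP5MC3 gave 50.1% and 52.1% of the subunit c UMIs in muscle-like cells and between 29.2% and 39.6% in the other 8 compared classes, while ATP5MC2 gave 25.1% and 23.9% in muscle-like cells and between 36.3% and 50.3% in those 8. In the 91 melanocyte-like cells of the glaucoma library, a class too small in the normal library to compare, ATP5MC3 gave 44.8% [41.0 to 48.7] and ATP5MC2 34.0% [30.4 to 37.8]. COX6B2 and COX7B2, known as testis forms, gave 15 and 7 and 3 and 40 UMIs in all. The 40 UMIs of COX7B2 in the normal library came from 19 cells, and 19 of them fell in stromal fibroblast-like and 13 in trabecular meshwork-like cells.

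The genes with the pattern most like each isoform were listed over 18 points, 9 classes in each library, among 10610 genes, as a description. The points share libraries and depth. COX4I2 was closest to PGF, TINAGL1, SLC38A11, RERGL and PLAAT2, with Pearson correlations of 0.95 to 0.97. NDUFA4L2 was closest to ANO1, SEPT7, ARTN, RHOJ and FILIP1L (0.89 to 0.95) and correlated with COX4I2 at 0.84. COX7AH was closest to COX6B1, ATP5MC3, UQCRC1, COX7B and PDHA1 (0.94 to 0.96), of which all but PDHA1, a subunit of pyruvate dehydrogenase, are members.

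The nuclear subunit genes were found in all compared classes and as a whole were at their highest in muscle-like cells. Of 60 subunits counted well enough to rank, 57 were at their highest in muscle-like cells in each library. With 10 CPM added to each level, the median gene spanned a log2 range of 2.09 and 2.07 from its lowest to its highest class. The added 10 CPM narrows this range, most of all for genes of low level. Summed over all 64 subunits, muscle-like cells held 50551 and 42767 CPM. Pericyte-like cells followed with 27786 and 23352 CPM, then myelinating Schwann cell-like cells with 18262 and 15035, non-myelinating Schwann cell-like cells with 17373 and 13716 and trabecular meshwork-like cells with 16413 and 12217 CPM. Macrophage-like, T or NK cell-like, stromal fibroblast-like and vascular endothelium-like cells lay between 12793 and 13922 CPM in glaucoma and between 10653 and 12683 CPM in normal. Inside the muscle-like class cluster 0 stood at 58412 and 48769.7 CPM and cluster 10 at 54155 and 48676 CPM. Cluster 9, at 26460.2 and 22201 CPM, and cluster 21, at 26292 and 21742 CPM, lay below the pericyte-like class.

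All 9 classes had the higher summed level in the glaucoma library, with log2 ratios between 0.11 in T or NK cell-like cells and 0.43 [0.41 to 0.44] in trabecular meshwork-like cells. All of the 19 clusters of these classes with at least 20 cells in each library showed the same direction, with log2 ratios from 0.10 to 0.48. The clusters come from the same pair of libraries and are not independent. The muscle-like class (0.24) kept this direction within clusters but turned to -0.04 when cells with 20% or more mitochondrial UMIs were left out, a limit that removes 964 of 1608 and 422 of 1468 of its cells. The trabecular meshwork-like value was 0.21 when each cluster had the same weight in both libraries. Genes of the mitochondrial ribosome, which translates the mitochondrial transcripts, moved alike, with log2 ratios of 0.19 to 0.41 by class, whereas those of the cytosolic ribosome lay between -0.15 and 0.19.

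**Figure D2:**
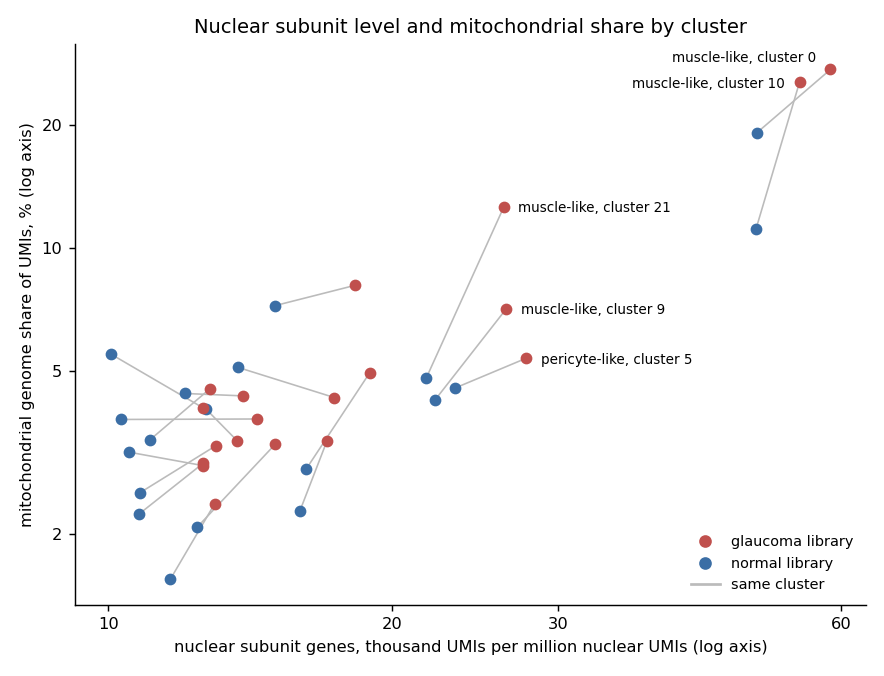
Summed level of the nuclear subunit genes (x axis, 1000 CPM, log axis) and mitochondrial genome share of UMIs (y axis, percent, log axis) for the 19 clusters of the compared classes with at least 20 cells in each library. Grey lines join the same cluster in the 2 libraries. Every line runs to the right from normal to glaucoma, and 13 of 19 also run upward.

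By complex the difference in trabecular meshwork-like cells was alike for complex I (6058 and 4409 CPM, log2 ratio 0.46), complex IV (5409.8 and 4178 CPM, 0.37) and ATP synthase (4414 and 3245 CPM, 0.44). Complex III was higher by 0.60 (345 and 228 CPM) and complex II by 0.24 (186 and 158 CPM). In pericyte-like cells the ratios were 0.33 for complex I, 0.46 for complex II, 0.37 for complex III, 0.17 for complex IV and 0.33 for ATP synthase. The lower value for complex IV there includes COX4I2, which did not differ. Assembly factors and inhibitors differed by 0.33 in trabecular meshwork-like cells, 0.06 in muscle-like cells and -0.01 [-0.14 to 0.12] in vascular endothelium-like cells.

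Gene by gene the differences were small and mostly in 1 direction. A gene was called when its ratio was 2-fold or more and its counting interval excluded no difference, among genes with at least 100 UMIs in the class. In trabecular meshwork-like cells 5 of 58 subunits (8.62%) were called higher and none lower, where 5.87% of all 8010 nuclear features were called higher and 5.31% lower. The median log2 ratio was 0.48 over the subunits against 0.02 over all features, and 48 of the 58 subunits had an interval above 0. With a limit of 1.5-fold 17 subunits were called higher. For that limit the share over all features was not computed, and for intervals above 0 it is not given here. Neither count can therefore be set against a background.

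The 5 called subunits were NDUFA4L2 and COX4I2, given above, and UQCRH, NDUFB8 and NDUFA9. UQCRH, the hinge protein of complex III, stood at 55.7 and 16.9 CPM, a log2 ratio of 1.72 [1.38 to 2.07]. NDUFB8, a membrane-arm subunit of complex I, stood at 83.0 and 26.5 CPM (1.65 [1.38 to 1.93]). NDUFA9, at the joint of the arms of complex I, stood at 39.1 and 18.2 CPM (1.11 [0.77 to 1.46]). Among assembly factors of complex I NDUFAF8 stood at 9.12 and 2.5 CPM (1.86) and NDUFAF6 at 15.7 and 7.72 CPM (1.02). NDUFS1, the large iron-sulphur subunit of complex I, went the other way with 31.8 and 39.0 CPM (-0.30 [-0.56 to -0.03]), below the limit for a call.

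**Figure D3:**
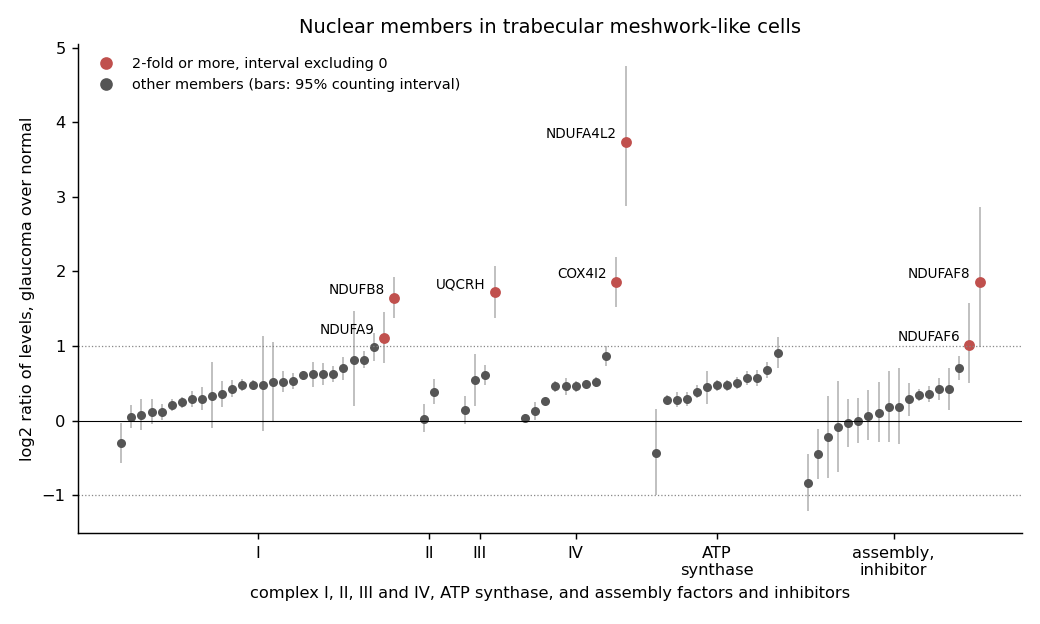
Log2 ratio of levels, glaucoma over normal (y axis), of each nuclear member with at least 100 UMIs in trabecular meshwork-like cells, grouped along the x axis by complex, with 95% counting intervals; dotted lines mark 2-fold. Most subunits lie between 0 and 1, and red points are the 5 subunits and 2 assembly factors called higher.

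In the other classes few members were called. Stromal fibroblast-like cells had 4 of 57 subunits called higher, against backgrounds of 2.25% higher and 4.34% lower. Besides NDUFA4L2 these were NDUFB8 (62.6 and 21.8 CPM, 1.52), UQCRH (38.0 and 17.4 CPM, 1.12) and NDUFA2, a complex I subunit (15.2 and 6.52 CPM, 1.22). Muscle-like cells had 2 of 60 higher and 1 lower, against 2.45% and 3.97%: NDUFB8 (175 and 69.8 CPM, 1.33), UQCRH (256 and 117 CPM, 1.13) and ATP5F1B (23.4 and 49.5 CPM, -1.08). These shares lie near the background. Macrophage-like cells had 2 of 48 higher, NDUFB8 (42.9 and 15.3 CPM, 1.49) and ATP5MPL of ATP synthase (81.1 and 38.9 CPM, 1.06), against 3.43% and 5.6%. Vascular endothelium-like cells had 2 of 49 higher, UQCRH (51.6 and 21.6 CPM, 1.25) and the central stalk subunit ATP5F1C (80.5 and 40.0 CPM, 1.01), against 1.85% and 1.65%. Pericyte-like cells had 1 of 47 higher, the feature named NDUFC2 (151 and 68.6 CPM, 1.14), against 2.49% and 4.56%. No subunit was called of 28 in T or NK cell-like cells (backgrounds 3.53% and 2.9%), of 37 in myelinating Schwann cell-like cells (1.9% and 3.55%) or of 46 in non-myelinating Schwann cell-like cells (2.79% and 5.09%). Of the assembly factors NDUFAF8 was called higher in muscle-like cells (16.6 and 6.71 CPM, 1.31) and COX14 in myelinating Schwann cell-like cells (204 and 101 CPM, 1.02).

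The same 2 subunits recurred across classes. NDUFB8 was called higher in all 4 classes where it reached 100 UMIs, with log2 ratios of 1.33 to 1.65. UQCRH was called in 4 of 5, with ratios of 0.61 to 1.72. In the other direction NDUFS1 was below 0 in all 3 classes where it reached 100 UMIs (-0.48 to -0.30), as were, in the 3 classes where each reached them, the heme synthesis factors COX15 (-0.93 to -0.35) and COX10 (-0.60 to -0.09) and the subunit ATP5PB (-0.84 to -0.38). Of the 28 subunits measured in all 9 classes 12 (42.9%) had a ratio above 0 in each, and of 556 nuclear features measured in all 9 it was 165 (29.7%). These classes come from the same pair of libraries and are not independent.

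Other genes of the pathway were followed in lists. Of 23 other assembly factors and carriers none was called in trabecular meshwork-like cells (median 0.31), and cytochrome c1 (CYC1), a complex III subunit outside the naming rule, stood at 246 and 179.7 CPM (0.46). None of 18 genes of the citrate cycle and pyruvate entry was called there (median 0.27). None of 13 genes for upkeep and expression of the mitochondrial genome was called (median -0.02). Of 5 measured regulators of mitochondrial biogenesis 1 was called lower, the coactivator PPARGC1A at 12.7 and 26.5 CPM (-1.06 [-1.42 to -0.69]). Over all nuclear features of this class 5.87% were called higher and 5.31% lower. In muscle-like cells SCO2, a copper chaperone of complex IV, was called higher (39.3 and 18.4 CPM, 1.09), as was MPC2, part of the mitochondrial pyruvate carrier (83.2 and 33.0 CPM, 1.33). In pericyte-like cells SUCLG1, of succinyl-CoA ligase, was called higher (305 and 142 CPM, 1.10) and the outer membrane pore VDAC1 lower (40.2 and 95.7 CPM, -1.25). The backgrounds were 2.45% higher and 3.97% lower in muscle-like cells, and 2.49% and 4.56% in pericyte-like cells. The number of genes measured per list in these 2 classes is not given here, so these single calls cannot be set against them.

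Transcripts of the mitochondrial genome took 8.61% and 6.82% of the UMIs of kept cells, a log2 ratio of 0.34. The size of this difference depended on which cells were counted. Over every deposited barcode the shares were 9.27% and 8.16% (0.18), and among cells under 20% they were 4.68% and 4.49% (0.06). Muscle-like cells gave 1954937 of the 3034950 and 1094292 of the 1600562 mitochondrial UMIs, and without them the shares were 4.01% and 3.06% (0.39).

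The mitochondrial share differed most between classes. Muscle-like cells, at median depths of 5290.5 and 3775 UMIs, held 23.5% and 15.8% (log2 ratio 0.57), with 964 of 1608 and 422 of 1468 cells at 20% or more. The share was 27.3% and 19.1% in their ATP2A1-led cluster 0, 25.4% and 11.1% in cluster 10, 7.11% and 4.24% in cluster 9 and 12.6% and 4.8% in cluster 21, so each cluster was higher in the glaucoma library. Cluster 10 had 659 glaucoma and 42 normal cells and may stand for a library rather than a type. A mitochondrial share is also read as a sign of damaged cells, and its part in these values was not tested.

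Summed over each class, trabecular meshwork-like cells showed the widest gap between libraries of the 9 classes. The shares were 3.89% [3.88 to 3.9] against 1.75% [1.74 to 1.76], a log2 ratio of 1.15. The median cell held 3.69% and 1.53%, at median depths of 5659 and 7223 UMIs. Different clusters held most of the class in each library, but all 4 were higher in the glaucoma library: 3.31% and 2.08% in cluster 4, 4.96% and 2.88% in cluster 11, 2.37% and 1.55% in cluster 13, and 3.38% and 2.27% in cluster 18. With the same weight for each cluster the log2 ratio was 0.68, slightly below that of muscle-like cells. The rank of the class thus depended on the cluster weights. By cluster the log2 ratios ran from 0.58 to 0.78 in this class and from 0.51 to 1.40 in the muscle-like class. Against nuclear UMIs, and by the same limit as the nuclear genes, MT-CO1 (log2 ratio 1.87), MT-ATP6 (1.77), MT-ND5 (1.44), MT-CO2 (1.31) and MT-ND1 (1.24) were 2-fold or more higher in these cells, and in muscle-like cells MT-CO1 (1.49), MT-ATP6 (1.35) and MT-ND1 (1.06). The only ones lower by as much were MT-ND2 in T or NK cell-like cells (-1.37) and in non-myelinating Schwann cell-like cells (-1.23), and MT-ND6 in both Schwann cell-like classes (-1.22 in the myelinating and -1.46 in the non-myelinating class).

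**Figure D4:**
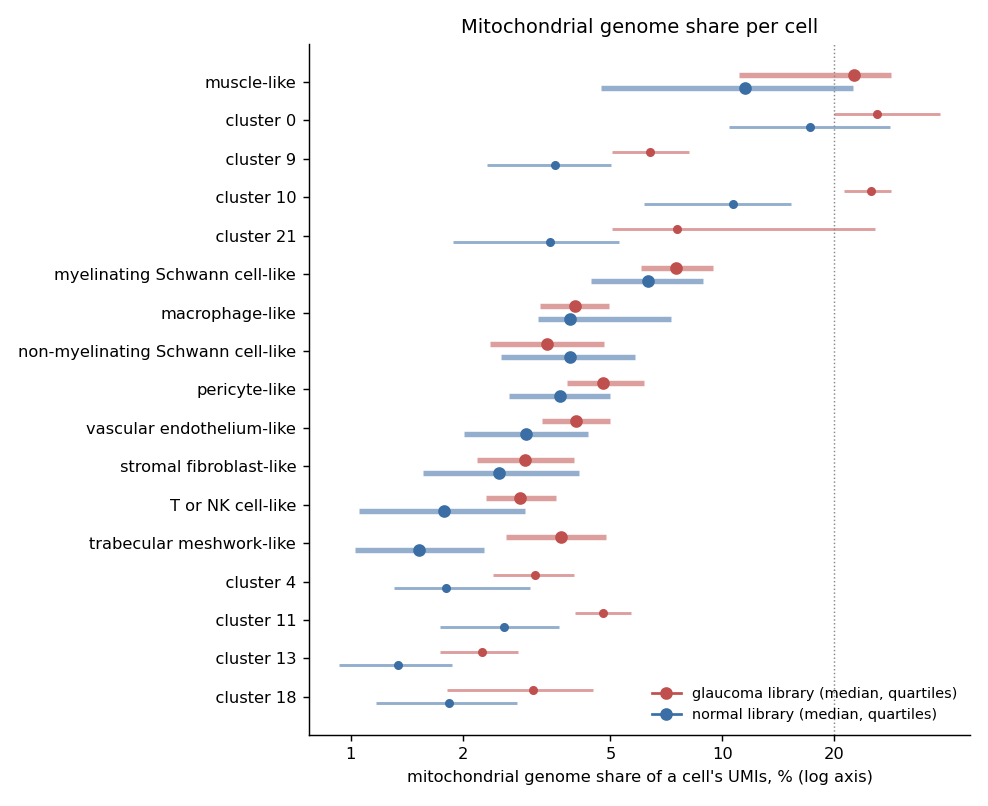
Mitochondrial genome share of a cell's UMIs in percent (x axis, log axis) in 9 classes and in the clusters of the muscle-like and trabecular meshwork-like classes (y axis); points are medians over cells, bars run from the lower to the upper quartile, and the dotted line marks 20%. The medians are 22.6% and 11.5% in muscle-like cells and 3.69% and 1.53% in trabecular meshwork-like cells.

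In the remaining classes the libraries lay closer together. Pericyte-like cells held 5.38% and 4.55% (0.24), vascular endothelium-like cells 4.48% and 3.71% (0.27), stromal fibroblast-like cells 3.32% and 2.87% (0.21) and myelinating Schwann cell-like cells 8.1% and 7.23% (0.16). The order was the other way in non-myelinating Schwann cell-like cells with 4.31% and 5.11% (-0.25), macrophage-like cells with 4.35% and 4.56% (-0.07) and T or NK cell-like cells with 3.38% and 4.05% (-0.26). For T or NK cell-like cells the medians ran against the sums, at 2.86% and 1.78%, and the ratio was 0.58 among cells under 20%. For macrophage-like cells the ratio was 0.10 with doublets kept, and for stromal fibroblast-like cells it was -0.02 with each library clustered separately, so these 3 directions depend on the processing. Over the 19 clusters of the compared classes the share was higher in the glaucoma library in 13, with log2 ratios from -0.43 to 1.40.

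Set against the nuclear subunits, mitochondrial transcripts did not keep a fixed ratio. Per UMI of the nuclear subunits there were 6.07 and 4.4 mitochondrial UMIs in muscle-like cells, 2.47 and 1.46 in trabecular meshwork-like cells, and 2.05 and 2.04 in pericyte-like cells. In myelinating Schwann cell-like cells there were 4.83 and 5.18, and in non-myelinating Schwann cell-like cells 2.59 and 3.93. Pericyte-like cells thus had the second highest nuclear level of the classes but the lowest ratio in the glaucoma library, and the normal trabecular meshwork-like cells had the lowest in theirs. Across the 9 classes the mitochondrial share and the nuclear level correlated at 0.89 and 0.79 (Pearson), and across the 8 without muscle at 0.54 and 0.41. These are descriptions over points that share a library, and they rest largely on muscle.

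Within the mitochondrial genome counts were very uneven between genes. MT-CO2 gave 31.0% and 28.2% of mitochondrial UMIs and MT-CO3 27.3% and 27.9%. MT-CO1 gave 16.6% and 10.0% and CYTB 15.6% and 22.4%. With MT-CO1 to MT-CO3 together, complex IV took 74.9% and 66.2%, complex III (CYTB) 15.6% and 22.4%, and complex I 9.49% and 11.3%. Of complex I, MT-ND1 gave 4.94% and 4.17%, MT-ND2 2.71% and 5.31%, MT-ND5 1.56% and 1.46%, MT-ND4 0.149% and 0.17%, MT-ND6 0.125% and 0.189%, and MT-ND3 0.00811% and 0.0191%. MT-ATP6 gave 0.0884% and 0.0619%. MT-ATP8, and ND4L, which lies outside the naming rule, had no UMI in either library, which allows at most 0.000122% and 0.00023% of mitochondrial UMIs. How well short features are captured was not tested.

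Relative to each other some of these genes stood apart between the libraries in all classes. The share of MT-CO1 in mitochondrial UMIs was higher in the glaucoma library by a log2 ratio of 0.72, in 9 of 9 classes (0.40 to 0.79) and in 21 of 21 clusters (0.25 to 0.74). These 21 clusters are all those with at least 20 cells in each library, including those outside the compared classes. Classes and clusters come from the same pair of libraries and are not independent, so their counts are not replication. The share of MT-ND2 was lower by a ratio of -0.97, in 9 of 9 classes (-1.10 to -0.43) and 21 of 21 clusters (-1.10 to -0.41). The share of CYTB was lower by a ratio of -0.53, again in 9 of 9 classes and 21 of 21 clusters, in 18 of them with an interval below 0. MT-ND6 was lower in 21 of 21 clusters, in 10 with an interval below 0. MT-CO2 and MT-CO3 differed less in size, with ratios of 0.14 and -0.03, but each mostly in 1 direction across clusters. MT-CO2 was higher in 21 of 21 clusters, in 18 with an interval above 0. MT-CO3 was lower in 19 of 21, in 16 with an interval below 0. MT-ND5 was higher in 20 of 21, in 14 with an interval above 0. MT-ND1 was higher in 10 clusters and lower in 11.

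**Figure D5:**
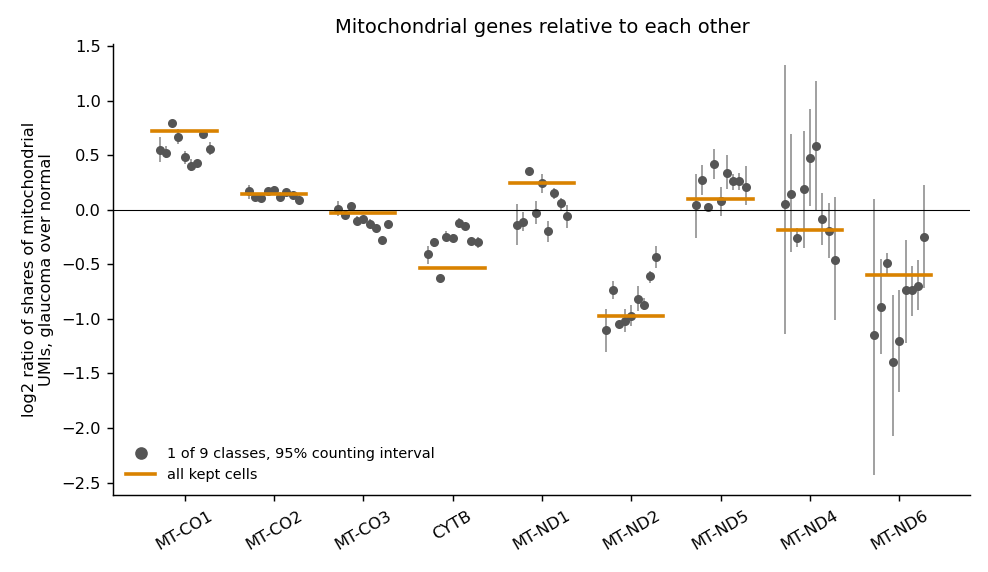
Log2 ratio of each mitochondrial gene's share of mitochondrial UMIs, glaucoma over normal (y axis), for 9 genes (x axis); points are 9 classes with 95% counting intervals and orange lines all kept cells (MT-CO1 0.72, CYTB -0.53, MT-ND2 -0.97). The points of MT-CO1 lie above 0 and those of CYTB and MT-ND2 below 0 in every class, while MT-ND1 and MT-ND4 fall on both sides.

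These gaps were also present among cells grouped by their own mitochondrial share. The groups were not matched for class or depth and come from the same 2 libraries, and the cause of the gaps was not tested. Cells were split by their own mitochondrial share into bands of 0 to 2%, 2 to 5%, 5 to 10%, 10 to 20% and 20% or more. From the lowest to the highest band the ratio for MT-CO1 was 0.53, 0.55, 0.55, 0.63 and 0.87, for MT-ND2 -0.57, -0.76, -0.93, -1.0 and -1.08, and for CYTB -0.20, -0.32, -0.32, -0.51 and -0.69. The direction was the same in all 5 bands for these 3 genes, and the gap was widest in the highest band. MT-ND6 was also lower in each band, but its gap was narrowest in the highest (-0.62, -0.80, -0.63, -0.52 and -0.42). Muscle-like cells made up 964 of the 1004 glaucoma and 422 of the 481 normal cells of that band. In absolute level, per 1000000 UMIs of all genes, MT-CO1 was at 14261 and 6832, MT-ND2 at 2333 and 3623, and CYTB at 13399 and 15287 over all kept cells.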

How the data were processed

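Single-cell RNA of trabecular meshwork was measured in 1 glaucoma and 1 normal library. The deposited values are counts: whole-number UMIs per feature and barcode, with no normalization. Reads were turned into counts by the authors' Cell Ranger run, version 4.0 per the submitters' processing notes (which also list Seurat 3.0) and 6.0.0 per the file headers. The genome build is not given in the sources used here. A reference table gave names to 873 of the features without a symbol, and 7584 stayed unnamed.

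Cells with at least 500 genes were kept after removal of doublets called by Scrublet in each library (442 cells or 4.55%, and 78 or 1.32%, where loading predicts 7.77% and 4.74%). Cells were scaled to 10000 UMIs, and the libraries were clustered together without integration (2000 variable genes, 30 principal components, 15 neighbours, Leiden resolution 1, seed 1), leaving members and mitochondrial genes out. Python 3.11.15, scanpy 1.11.5, igraph 0.11.9, numpy 2.4.6, scipy 1.17.1 and matplotlib 3.10.9 were used. Clusters were named from 19 marker sets, by the markers at least 2-fold above the median cluster seen in 10% or more of cells (at least 3 needed) and by their 10 leading genes. The rule that settles ties by the leading genes was chosen after the clusters had been seen, and it decided the pericyte-like cluster, which had 7 markers each of pericyte and muscle.

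UMIs were summed per class and library. Shares have exact (Clopper-Pearson) binomial intervals, levels exact Poisson intervals and ratios exact conditional binomial intervals, all at 95%. They cover counting error only, and for a count of 0 the upper limit of the interval is given. Likeness is the Pearson correlation of log2(CPM + 10). The ratio, interval and call were tested on simulated data.

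Genes named are the restricted isoforms with their partners, the mitochondrial genes, the members called in a class, the called members of the other lists (at most 3 each way), and the extremes of each complex. The genes said to recur across classes, the values by cluster and by band of mitochondrial share, and the split by RGS5 were chosen after their values were seen. Members and lists were chosen with earlier results of these data known. Alternatives were other cell filters, doublets kept, separate clustering, thinning to 1000 UMIs, other denominators, no count minimum, a 1.5-fold limit and the same cluster weights in both libraries. The isoform pairs of COX6A and COX8 and the promoters were not analysed here.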

Additional observations from a re-analysis of the deposited data

How the results depend on the processing

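Of 547 recomputed values 382 stayed within the interval or limit of the reported value, 157 moved outside it in either direction, and 8 were counted as reversed. A ratio was reversed when both intervals excluded no difference, on opposite sides, and a median ratio when its sign changed. Since counting intervals are narrow at these depths, even a small move can fall outside them.

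With cells of 20% or more mitochondrial UMIs left out, the log2 ratio of the library's mitochondrial share was 0.06, that of muscle-like cells 0.33, the summed nuclear subunits of muscle-like cells -0.04 and their median subunit -0.01, COX4I2 in muscle-like cells 0.74 (reported -0.34), the mitochondrial share of T or NK cell-like cells 0.58, and the shares of MT-ND2, CYTB and MT-CO1 -0.89, -0.39 and 0.58. This setting removes cells by the measure itself. Over every deposited barcode the library's share gave 0.18, CYTB -0.55 and MT-CO1 0.75. With doublets kept the ratios were 0.36 for the library, 0.54 for muscle-like cells, 0.21 for their nuclear subunits, 0.06 for T or NK cell-like and 0.10 for macrophage-like cells. With each library clustered separately they were 0.58 for muscle-like, 0.96 for trabecular meshwork-like and -0.02 for stromal fibroblast-like cells, and 1.45 for NDUFA4L2 in trabecular meshwork-like cells. Thinning to 1000 UMIs gave 0.45, 1.05 and 0.24 for the mitochondrial share of muscle-like, trabecular meshwork-like and T or NK cell-like cells, and no ratio for NDUFA4L2 in trabecular meshwork-like cells, as the normal library had no UMI left. The same cluster weights in both libraries gave 0.69 and 0.68 for the mitochondrial share of muscle-like and trabecular meshwork-like cells and 0.21 for the nuclear subunits of the latter. Per 1000000 UMIs of all genes the nuclear subunits differed by 0.10 in muscle-like and 0.39 in trabecular meshwork-like cells. A 1.5-fold limit raised the called subunits in trabecular meshwork-like cells from 5 to 17, and the share over all features at that limit was not computed. The last 2 settings, chosen after seeing the data, were these: without the muscle-like class the ratios were 0.39 for the library's share, -0.80 for MT-ND2, -0.32 for CYTB and 0.60 for MT-CO1, and without RGS5-positive cells 5.57 for NDUFA4L2 in trabecular meshwork-like cells. Beyond the cells each setting leaves out, the cause was not tested.

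No paired analysis was possible because each group has 1 library. The isoform shares of pericyte-like cells moved by less than their intervals under all alternatives run. Members under 100 UMIs and single cells of low depth limit what can be said of absence.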

Other observations

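Genes of glycolysis and of the response to low oxygen, a list kept outside the members, differed in both directions in trabecular meshwork-like cells. Of 22 measured genes 4 were called higher in the glaucoma library and 2 lower, where 5.87% of all features in the class were called higher and 5.31% lower, and different clusters hold most of the class in each library. The 4 were ANKRD37, a hypoxia-induced gene, at 157 and 39.5 CPM (log2 ratio 1.99), GAPDH of glycolysis at 684 and 211 CPM (1.69), the glucose transporter SLC2A1 at 476 and 165 CPM (1.53) and the platelet form of phosphofructokinase, PFKP, at 31.7 and 11.5 CPM (1.46). The lower genes were ADM, the vasodilator adrenomedullin, at 24.1 and 129 CPM (-2.42), and EPAS1, which encodes a hypoxia-inducible factor, at 29.0 and 98.5 CPM (-1.76). The median of the list was 0.19 against 0.02 over all features. EPAS1 was also called lower in pericyte-like cells (660.5 and 1409.9 CPM, -1.09) and in muscle-like cells (116 and 247 CPM, -1.09). In these classes 4.56% and 3.97% of all nuclear features were called lower. GAPDH was called higher in 9 of 9 classes, with log2 ratios from 1.13 in muscle-like to 1.72 in myelinating Schwann cell-like cells. By class 1.85% to 5.87% of all nuclear features were called higher, and the classes share the same pair of libraries.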
